A study of Mus musculus with 24 samples.

Results

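The miR-29 family comprises miR-29a, miR-29b and miR-29c, microRNAs (miRNAs) that carry the same seed, the stretch near the 5′ end that pairs with target messages. The 3 mouse guide-strand assays of the family (mmu-miR-29a, mmu-miR-29b and mmu-miR-29c, written without the prefix below) were selected by assay name among 584 miRNA assays, 375 on card A and 209 on card B of a real-time PCR array. All 3 members lie on card A, in 1 spot each, and gave a threshold cycle (Ct) on 12 of 12 card A arrays. Assays of the passenger strands, marked with an asterisk, were kept apart.

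The study profiled miRNAs of muscle stem cells, which lie along the fibres of skeletal muscle, from male C57BL/6 mice aged 8 weeks with no genetic change named in the labels. Quiescent stem cells form the 0 h group, and activated stem cells form groups taken 36, 60 and 72 h after muscle injury. Each group has 3 replicates on each card, 24 arrays in all, and the design text calls these replicates technical. All p-values below therefore measure technical spread and do not cover differences between mice. How the cells were sorted and the injury made is not given in the sources used here. In such bulk samples, fewer cells of a type and less RNA per cell cannot be told apart.

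miR-29 RNAs are known as repressors of collagens, elastin and other extracellular matrix genes, and their loss accompanies fibrosis in several organs. They also repress the DNA methyltransferases Dnmt3a and Dnmt3b. In muscle they are reported to rise during differentiation of myoblasts and to favour it, in a loop with the transcriptional repressor YY1. The family is made from a pair of gene clusters, and miR-29b is encoded in both.

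The mature guide strands, from RefSeq (mouse, GRCm38.p6), are shown because the members share a seed but differ at a few later bases, which the array assays have to tell apart. Capitals mark the seed, bases 2 to 8 from the 5′ end.
miR-29a-3p: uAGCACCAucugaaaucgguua
miR-29b-3p: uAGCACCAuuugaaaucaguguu
miR-29c-3p: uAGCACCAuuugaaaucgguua

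Among 1679 mature mouse miRNA names in the RefSeq table, these 3 alone held this seed. Positions are counted from 1 at the 5′ end. miR-29a and miR-29c differ by the single substitution C10U (miR-29a base first) and are identical at 21 of 22 bases. miR-29b differs from miR-29a by C10U, G18A, U21G and A22U and has 1 base more. The hexamer AGUGUU, reported in human cells as a nuclear import signal of miR-29b, begins at position 18 of miR-29b and is present in 1 of the 3 members and in 12 of the 1679 names (0.715%). Uridines at positions 9 to 11, reported in human cells to speed the decay of miR-29b, are present in 2 of the 3 members, miR-29b and miR-29c. A motif match describes the sequence only. How far each assay also reads the other members was not tested here.

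The miR-29a guide maps to chr6:31062673-31062694 on the minus strand, within the Mir29a hairpin gene. Mir29b-1 lies 275 bases away on the same strand, and its copy of the miR-29b guide is at chr6:31063025-31063047. The second copy is at chr1:195037091-195037113 on the plus strand, in Mir29b-2. It is 426 bases from Mir29c, whose guide is at chr1:195037600-195037621. Neither chromosome 6 hairpin overlaps another annotated gene, whereas Mir29b-2 and Mir29c both lie in the noncoding gene A330023F24Rik.

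Relative to U6 RNA, all 3 members were higher 36 h after injury than in quiescent cells, and by 72 h all 3 had fallen from that level. On this scale miR-29a peaked at 36 h and was intermediate at 60 h, miR-29b was high at both 36 and 60 h, and miR-29c peaked at 36 h and ended below its quiescent level. The rise at 36 h had the same direction with every reference tried, while the order of 36 and 60 h and the level at 72 h depended on the reference, as given further on. Levels are log2 values, the mean Ct of the 4 MammU6 spots of the array (U6 small nuclear RNA) minus the Ct of the assay, so that a higher value means more RNA. Each assay has its own PCR efficiency, so levels were compared over time and not between members.

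The Ct of miR-29a was 21.19, 21.17 and 21.25 at 0 h, and 18.04, 18.03 and 17.97 at 36 h. It was 19.79, 19.78 and 19.81 at 60 h, and 21.07, 21.10 and 21.18 at 72 h. As levels, in order of time, these are -5.83 ± 0.06, -3.13 ± 0.07, -4.40 ± 0.02 and -6.00 ± 0.14 (SD, n = 3). The 36 h arrays were the highest and the 60 h arrays the next, with no overlap between these groups or with the others. Every 72 h array was below every 0 h array in level, but by little.

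The Ct of miR-29b was 32.60, 33.00 and 31.49 at 0 h, and 29.05, 28.82 and 28.96 at 36 h. It was 29.47, 29.19 and 29.33 at 60 h, and 32.52, 32.14 and 31.37 at 72 h. The levels were -16.99 ± 0.78, -14.06 ± 0.12, -13.94 ± 0.12 and -16.90 ± 0.53 (SD, n = 3). The 36 and 60 h arrays overlapped each other and all lay above the 0 and 72 h arrays, which also overlapped each other. The scatter was widest in the 0 and 72 h groups, where the Ct came within a few cycles of the detection limit of 35.

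The Ct of miR-29c was 24.98, 24.79 and 24.83 at 0 h, and 22.20, 22.10 and 22.36 at 36 h. It was 24.43, 24.16 and 24.45 at 60 h, and 25.95, 25.77 and 25.72 at 72 h. The levels were -9.49 ± 0.13, -7.34 ± 0.10, -8.96 ± 0.14 and -10.70 ± 0.14 (SD, n = 3). The 4 groups did not overlap, in the order 36 h, 60 h, 0 h and 72 h from high to low.

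**Figure D1:**
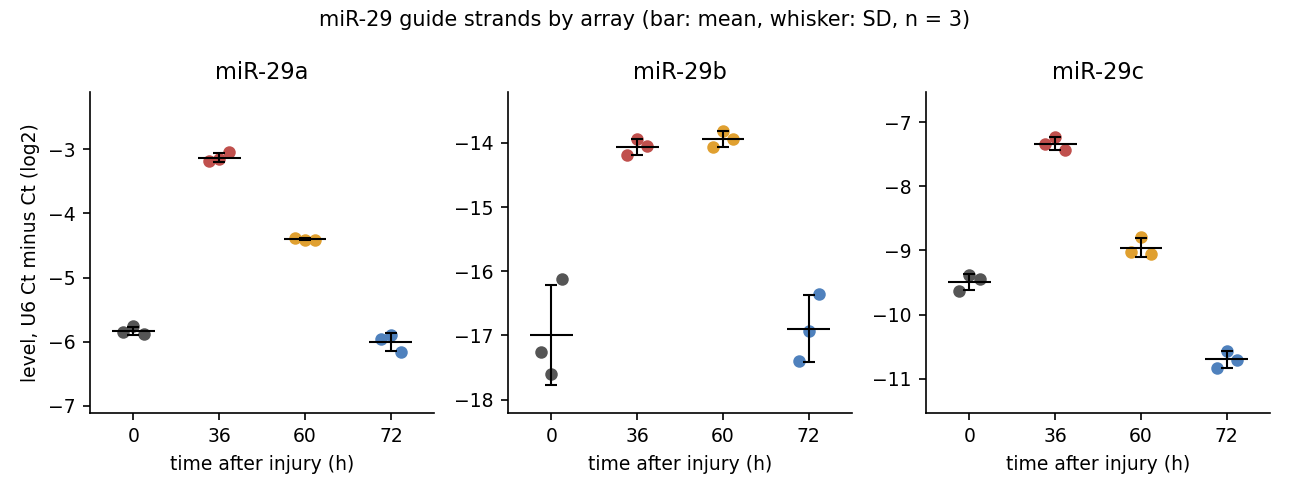
Level of each miR-29 member (vertical axis, U6 Ct minus assay Ct, log2) on every card A array against time after injury (h); each point is 1 array, the bar is the group mean and the whisker the SD of 3 arrays. All members are high at 36 h, miR-29b is as high at 60 h (-13.94 against -14.06), and miR-29c at 72 h (-10.70) lies below 0 h (-9.49).

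Cells taken 36 h after injury were compared with quiescent cells to find the miRNAs that change early in activation. miR-29a was 6.49-fold higher (log2 change 2.70 ± 0.08, SE, limma adjusted p = 3.54e-10). miR-29b was 7.62-fold higher (2.93 ± 0.36, limma adjusted p = 3.42e-05), and miR-29c was 4.45-fold higher (2.15 ± 0.10, limma adjusted p = 2.08e-08). A call needed a 2-fold change or more and a Benjamini-Hochberg adjusted p below 0.05, and 3 of 3 members were called higher. Of the 272 assays tested on both cards, 44.1% were called higher and 56.2% were called in either direction, so a call alone is common here. Among the 177 card A assays tested, 83.1% had a smaller log2 change than miR-29a, 83.6% than miR-29b and 75.1% than miR-29c. The median card A assay changed by 0.91, and the members stood 1.79, 2.02 and 1.24 above it in the order a, b, c.

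At 60 h, the members had moved apart. miR-29b was 8.31-fold above 0 h (log2 change 3.06 ± 0.36, limma adjusted p = 2.00e-05), miR-29a was 2.69-fold above it (1.43 ± 0.08, limma adjusted p = 3.02e-08), and the log2 change of miR-29c was 0.53 ± 0.10 (limma adjusted p = 0.000815), a 1.45-fold difference below the fold minimum. Thus 2 of 3 members were called higher, against 28% of the 250 assays tested on both cards and 64.4% called in either direction. The median card A assay changed by -0.49, and 88.1% of 168 tested card A assays had a smaller log2 change than miR-29b, 75.0% than miR-29a and 64.9% than miR-29c.

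At 72 h, miR-29c was 2.31-fold lower than at 0 h (log2 change -1.21 ± 0.10, limma adjusted p = 1.48e-06). The change of miR-29a was -0.17 ± 0.08 (limma adjusted p = 0.0568, 95% interval -0.34 to -0.0019) and that of miR-29b was 0.10 ± 0.36 (limma adjusted p = 0.813, 95% interval -0.72 to 0.91), and neither was called. The wide interval of miR-29b leaves room for a change in either direction. The single member called lower compares with 46.3% of 244 assays called lower and 67.2% called in either direction. miR-29c stood 0.16 above the card A median of -1.37, close to the middle of the card, whereas miR-29a and miR-29b stood 1.20 and 1.46 above it.

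**Figure D2:**
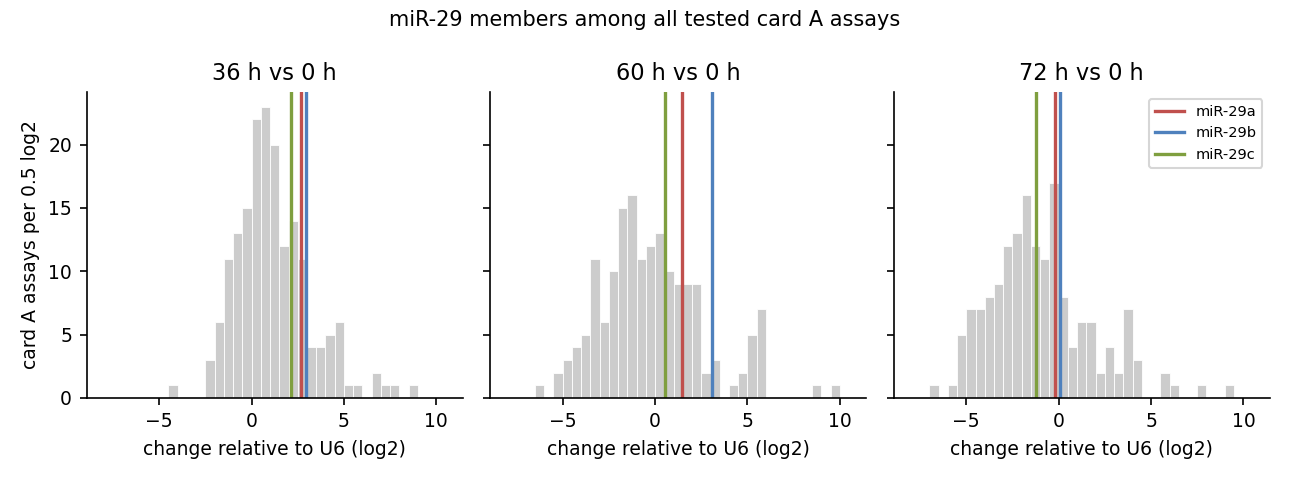
Number of card A assays (vertical axis) by log2 change against 0 h relative to U6 (horizontal axis, bins of 0.5) at 36, 60 and 72 h; coloured lines mark the miR-29 members. The members lie to the right of the middle of the distribution at 36 h, spread out at 60 h, and miR-29c falls near the median (-1.37) at 72 h.

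Between the later times, miR-29a and miR-29c fell from 36 to 60 h while no change of miR-29b was called. The decrease was 2.41-fold for miR-29a (log2 change -1.27 ± 0.08, limma adjusted p = 1.11e-07) and 3.07-fold for miR-29c (-1.62 ± 0.10, limma adjusted p = 2.02e-07). The log2 change of miR-29b was 0.12 ± 0.36 (limma adjusted p = 0.757, 95% interval -0.69 to 0.94). The 2 members called lower compare with 49.5% of 279 assays called lower, 5.38% called higher and 54.8% called in all, and the median card A assay itself changed by -1.27.

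From 60 to 72 h all 3 members fell, miR-29b the most. miR-29b dropped 7.77-fold (log2 change -2.96 ± 0.36, limma adjusted p = 4.17e-05), miR-29c 3.34-fold (-1.74 ± 0.10, limma adjusted p = 2.37e-07) and miR-29a 3.04-fold (-1.60 ± 0.08, limma adjusted p = 5.66e-08). The 3 members called lower compare with 35.8% of the 265 assays tested on both cards, where 0.755% were called higher and 36.6% in either direction. In this comparison miR-29b ranked 265 of 265 from the highest change down, the lowest of all assays tested. On card A, 9.55% of 178 tested assays lay below miR-29a and 6.74% below miR-29c. Assays with fewer than 2 detected replicates at 72 h are not in this ranking.

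From 36 to 72 h the decrease was 7.32-fold for miR-29a, 7.13-fold for miR-29b and 10.3-fold for miR-29c, with limma adjusted p-values of 9.87e-11, 3.25e-05 and 3.30e-10. All 3 were called lower, as were 69.3% of 270 tested assays, with 4.07% called higher and 73.3% in either direction. The median card A assay changed by -2.30 and the members by -2.87, -2.83 and -3.36. Set against snoRNA202, miR-29a (-0.70) and miR-29b (-0.66) were no longer called, nor were they after scaling to the global mean (-0.55 and -0.51), while miR-29c was called both times (-1.19 and -1.04).

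Because U6 was 1 of several possible references, the members were also set against other control RNAs. On card A, relative to U6, the log2 change of snoRNA202 at 36, 60 and 72 h was -0.88, -2.40 and -3.05, that of snoRNA135 -0.22, -0.34 and -0.87, and that of Y1 0.65, 0.11 and -0.33. The median card A change at 36, 60 and 72 h was 1.79, 1.91 and 1.68 with snoRNA202, 1.12, -0.15 and -0.50 with snoRNA135, 0.26, -0.60 and -1.04 with Y1, and -0.38, -0.34 and -0.34 with the global mean, which averages the Ct of those assays of the card that were detected on 12 of 12 arrays. For an assay detected on every array, another reference shifts its change by the same amount as its neighbours, so its distance from them stays the same.

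The rise of miR-29a at 36 h was 3.58 with snoRNA202, 2.91 with snoRNA135, 2.05 with Y1 and 1.41 with the global mean (log2), and it was called each time. For miR-29b these values were 3.81, 3.15, 2.28 and 1.64, all called. For miR-29c they were 3.03, 2.37 and 1.50, all called, and 0.86 with the global mean, which was not. The rise of miR-29b at 60 h was also called with each reference, with changes of 5.46, 3.39, 2.95 and 3.21, and so was that of miR-29a, with 3.83, 1.77, 1.32 and 1.59. A higher level at 36 h than at 0 h was thus present with every reference used.

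The comparisons of later times and of 72 h with 0 h did depend on the reference. The decrease of miR-29c against 0 h was called with U6 alone: the change was -0.34 with snoRNA135, -0.88 with Y1 and -0.17 with the global mean, and with snoRNA202 it turned to a called increase of 1.84. With snoRNA202 miR-29a (2.88) and miR-29b (3.14) were also called higher at 72 h, and with the global mean miR-29b was (1.13). The change of miR-29a at 72 h, -0.17 with U6, was 0.69 with snoRNA135, 0.15 with Y1 and 0.86 with the global mean, and none of these was called. The fall of miR-29b from 60 to 72 h was called with each reference, at -2.32 with snoRNA202, -2.43 with snoRNA135, -2.52 with Y1 and -2.08 with the global mean. That of miR-29a was not called with snoRNA202 (-0.96) or the global mean (-0.73), nor that of miR-29c with the global mean (-0.87).

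The step from 36 to 60 h differed most between references. For miR-29a from 36 to 60 h the decrease was called with snoRNA135 (-1.15) but not with Y1 (-0.73), and the direction turned with snoRNA202 (0.26) and the global mean (0.18). For miR-29c the decrease was called with snoRNA135 (-1.50) and Y1 (-1.08), and the change was -0.09 with snoRNA202 and -0.17 with the global mean, neither called. miR-29b was called higher at 60 h than at 36 h with snoRNA202 (1.65) and the global mean (1.57).

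**Figure D3:**
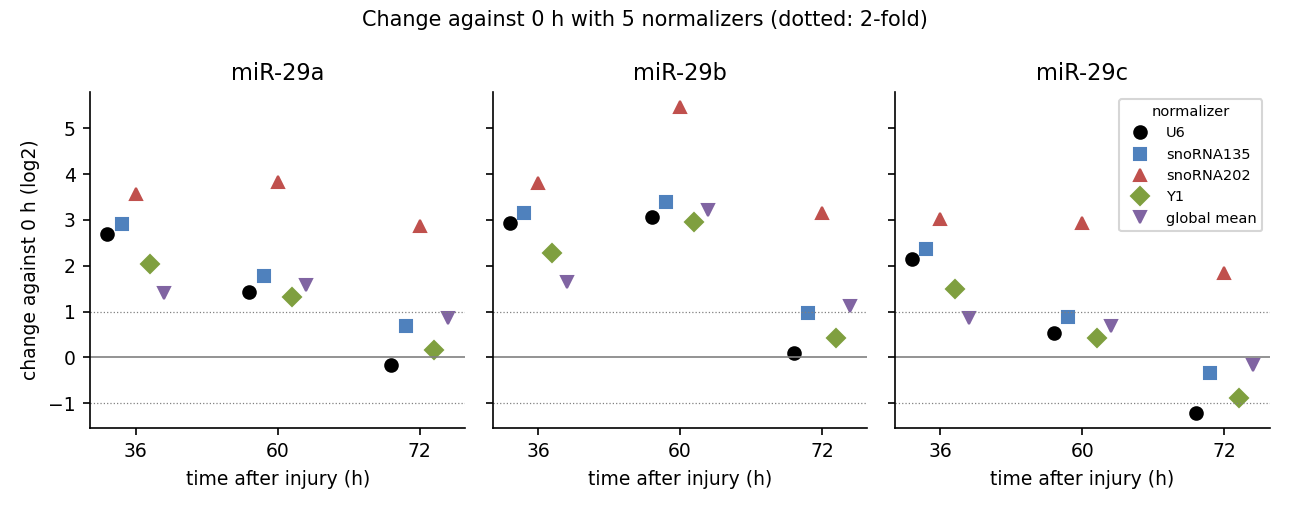
Change of each miR-29 member against 0 h (vertical axis, log2) at 36, 60 and 72 h, computed with U6, snoRNA135, snoRNA202, Y1 or the global mean as reference; the dotted lines mark a 2-fold change. At 36 h all points lie above 0, from 0.86 to 3.81, while at 72 h the points of miR-29c run from -1.21 to 1.84.

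The difference between 2 members on the same array needs no reference and shows whether they moved together. It was tested with an exact permutation test of the spread between the 4 time groups, over all 369600 arrangements of 12 arrays, with Benjamini-Hochberg adjustment over the 3 pairs. The smallest p this test can give is 6.49e-05. The p of a pair covers all 4 groups together, and no single time was tested against 0 h.

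The log2 difference of miR-29a minus miR-29c was 3.79, 3.63 and 3.57 at 0 h, and 4.16, 4.08 and 4.39 at 36 h. It was 4.64, 4.38 and 4.65 at 60 h, and 4.88, 4.67 and 4.54 at 72 h. The 0 h arrays were the lowest and did not overlap any later group, whereas 36 and 60 h overlapped, as did 60 and 72 h. Against 0 h the mean difference was larger by 0.55 at 36 h, 0.90 at 60 h and 1.03 at 72 h (exact permutation p = 0.000519, adjusted p = 0.00127). miR-29c was thus lower relative to miR-29a at each time after injury than in quiescent cells.

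The difference of miR-29b minus miR-29c was -7.63, -8.21 and -6.66 at 0 h, and -6.85, -6.72 and -6.61 at 36 h. It was -5.04, -5.02 and -4.88 at 60 h, and -6.57, -6.38 and -5.65 at 72 h. The 60 h arrays were the highest and did not overlap the others. The mean difference was 0.78 above 0 h at 36 h, where the arrays overlapped those of 0 h, 2.52 above it at 60 h and 1.30 at 72 h. Over the 4 groups the exact permutation p was 0.000844 (adjusted p = 0.00127).

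The difference of miR-29a minus miR-29b was 11.42, 11.84 and 10.24 at 0 h, and 11.01, 10.79 and 10.99 at 36 h. It was 9.68, 9.41 and 9.53 at 60 h, and 11.45, 11.05 and 10.19 at 72 h. The 60 h arrays lay below all others, at -1.63 from the 0 h mean, and the remaining groups overlapped (exact permutation p = 0.0344, adjusted p = 0.0344). This call was lost when 0 h replicate 1 was left out (exact permutation, adjusted p = 0.0534) and when 60 h replicate 1, 2 or 3 was left out (adjusted p = 0.0754, 0.0961 and 0.0866).

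**Figure D4:**
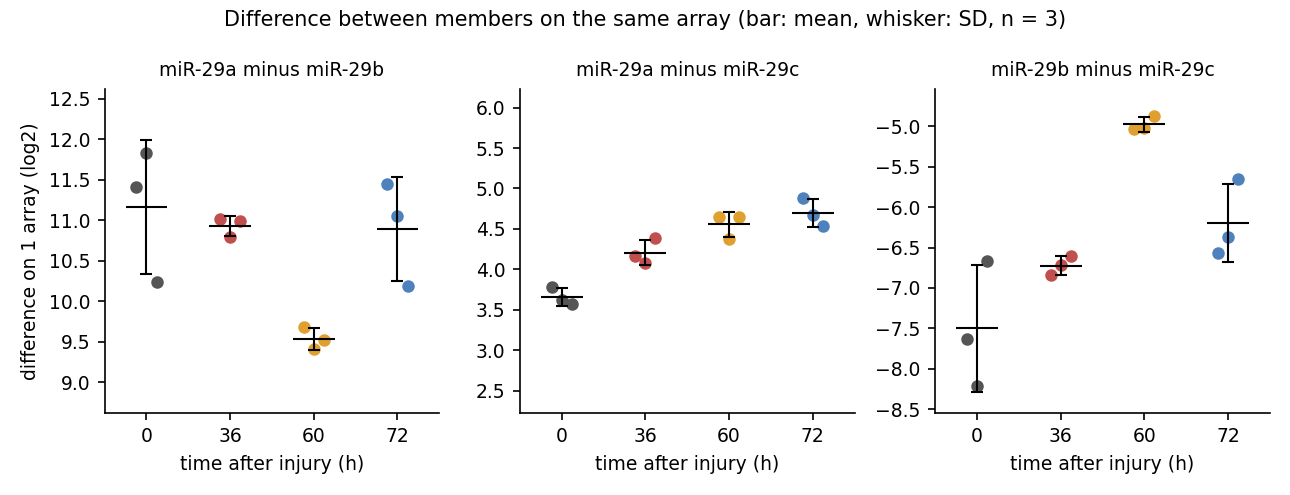
Difference between 2 miR-29 members on the same array (vertical axis, log2) against time after injury (h); each point is 1 array, the bar is the mean and the whisker the SD of 3 arrays. miR-29a minus miR-29c is lowest at 0 h (mean 3.66), and the pairs with miR-29b stand apart at 60 h.

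The authors' deposited table gives average fold changes against 0 h for the members. In the authors' deposited table miR-29a was 6.49 at 36 h and 2.69 at 60 h, miR-29b was 8.45 and 9.22, and miR-29c was 4.46 and 1.45. For miR-29a and miR-29c these are near the fitted folds. For miR-29b, whose 0 h arrays scattered most, the authors' deposited table gives averages of linear ratios that are above the fitted folds of 7.62 and 8.31, which average log2 values.

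Passenger strands come from the opposite arm of the same hairpins and were read by 5 assays on card B. Their RefSeq sequences (GRCm38.p6) are shown because both miR-29b hairpins give the same guide but different passengers. Capitals mark bases 2 to 8.
miR-29a-5p: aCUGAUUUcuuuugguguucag
miR-29b-1-5p: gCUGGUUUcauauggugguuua
miR-29b-2-5p: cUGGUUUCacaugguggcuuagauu
miR-29c-5p: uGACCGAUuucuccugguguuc

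Relative to U6, the miR-29a passenger, like its guide, was highest at 36 h. Its mean Ct over 2 spots was 31.90, 34.02 and 30.25 at 0 h, and 26.74, 26.52 and 26.88 at 36 h. It was 28.58, 28.88 and 28.38 at 60 h, and 30.26, 30.77 and 30.15 at 72 h. The 36 h arrays were highest in level and the 60 h arrays next, and the 72 h arrays overlapped those of 0 h, where the spots of 1 array differed by 2.13 cycles. miR-29a* was 22.7-fold higher at 36 h (log2 change 4.50 ± 0.71, limma adjusted p = 0.000136) and 10.4-fold higher at 60 h (3.37 ± 0.71, limma adjusted p = 0.00104). The size rested on the 0 h arrays: without 0 h replicate 2 these changes were 3.58 and 2.45, and without 0 h replicate 3 they were 5.46 and 4.33, called each time. From 36 to 60 h miR-29a* changed by -1.13 ± 0.71, which was not called (limma adjusted p = 0.158), and by 0.31 with snoRNA202.

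At 72 h miR-29a* was 3.27-fold above 0 h (log2 change 1.71 ± 0.71, limma adjusted p = 0.0431). That call was lost in 11 of 12 fits that left out 1 array, and without 0 h replicate 2 the change was 0.78 (limma adjusted p = 0.150), while without 0 h replicate 3 it was 2.67 (limma adjusted p = 0.000275). The call was also lost with Y1 (0.98, limma adjusted p = 0.19), but not with snoRNA202 (4.32), snoRNA135 (2.05) or the global mean (2.07). It was lost too with undetected values at Ct 35 (limma adjusted p = 0.0571) and with the compared groups fitted alone (limma adjusted p = 0.0973). From 36 to 72 h miR-29a* fell 6.95-fold (limma adjusted p = 0.00323). This fall was called with snoRNA135 (-2.80), Y1 (-2.49) and the global mean (-1.65), but not with snoRNA202 (-1.29, limma adjusted p = 0.120).

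The assay named for mouse miR-29b* showed no called change relative to U6. Its level was -9.97 ± 0.22, -9.89 ± 0.12, -9.92 ± 0.04 and -9.92 ± 0.07 in order of time (SD, n = 3), and all 4 groups overlapped. The change against 0 h was 0.07 at 36 h, with a 95% interval of -0.22 to 0.37, 0.04 at 60 h (-0.26 to 0.34) and 0.04 at 72 h (-0.25 to 0.34). These intervals leave out the changes of the miR-29b guide at 36 and 60 h, 2.93 and 3.06. The Ct of the miR-29b* assay was 24.48 to 25.69, against 28.82 to 33.00 for the guide on card A. Whether this signal comes from a miR-29b passenger alone was not tested. With snoRNA202 as reference the assay was called higher at each later time, by 1.18, 2.59 and 2.65. The changes were 0.42, 0.45 and 0.39 with snoRNA135, -0.96, -0.22 and -0.68 with Y1, and -0.70, -0.02 and 0.41 with the global mean. None of these was called. The name does not say which of the 2 hairpins it reads, and the assays named for rat miR-29b-1* and miR-29b-2* were near or below the detection limit: the first gave a Ct on 1 array, at 36 h (34.41), and the second on 2 arrays, at 36 h (33.38 and 33.35).

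The miR-29c passenger was detected at 0 and 36 h and was mostly lost later. Its mean Ct was 31.08, 31.70 and 30.78 at 0 h, and 29.73, 29.27 and 29.57 at 36 h. The levels, -15.63 ± 0.47 and -14.81 ± 0.24 (SD, n = 3), did not overlap, and the log2 change of 0.82 ± 0.27 (limma adjusted p = 0.0295) was below the fold minimum. At 60 h 4 of 6 spots had a Ct below 35, and the 0 h level was 5.69-fold above the highest of these spots. At 72 h 0 of 6 spots had a Ct, so that relative to U6 the level was at least 13.6-fold lower than at 0 h, with 72 h set to Ct 35. As log2 differences the gaps at 60 and 72 h were 2.51 and 3.77. On card B snoRNA202 itself changed by -2.55 and -2.61 relative to U6. With it as reference the gap to the highest 60 h spot would vanish and the 72 h gap would shrink. The 60 h gap is a smallest value, as the other spots at 60 h were lower or gave no Ct. The single 60 h array with both spots below Ct 35 was at -18.78, against -15.63 at 0 h. Whether a fall at 60 h remains with snoRNA202 was not tested. Both gaps would be smaller with snoRNA135 (-0.40 and -0.35) and larger with Y1 (0.26 and 0.72).

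**Figure D5:**
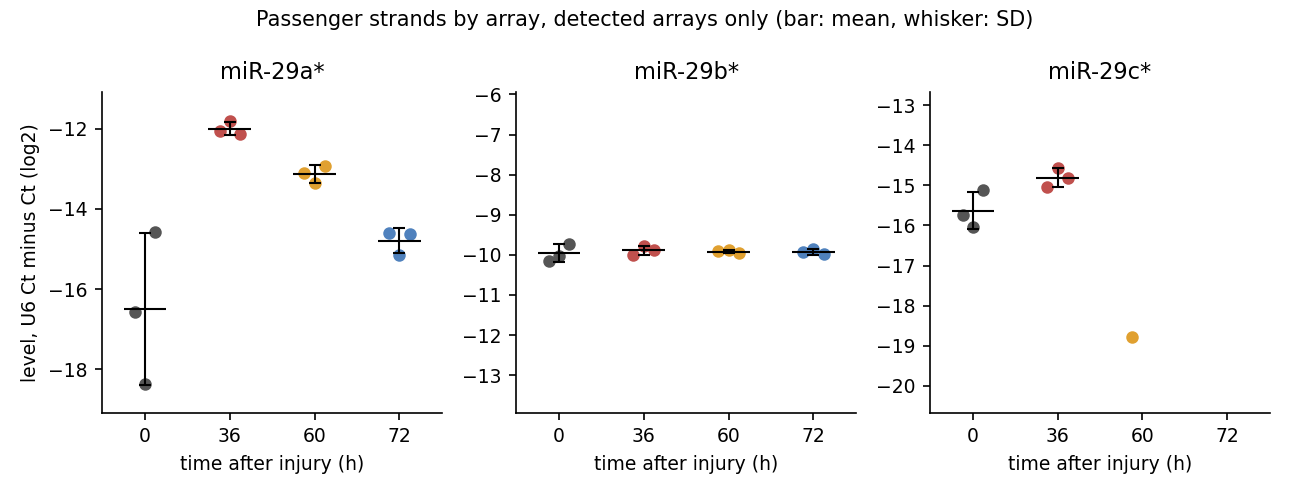
Level of the passenger strands miR-29a*, miR-29b* and miR-29c* (vertical axis, U6 Ct minus assay Ct, log2) on card B arrays with every spot below Ct 35, against time after injury (h); points are arrays, bars means and whiskers SD. miR-29b* stays between -10.16 and -9.72, and miR-29c* has 1 point at 60 h and none at 72 h.

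The assays with the courses most like those of the members were found among the 151 other card A assays detected on all 12 arrays, as the smallest root mean square difference of levels centred on their own means. For miR-29a it was miR-27a, at 0.25 (Pearson r 0.997), followed by miR-340-5p at 0.34 and miR-140 at 0.40. For miR-29b it was miR-155 at 0.69 (r 0.955), followed by miR-29a at 0.77 and miR-222 at 0.79. For miR-29c it was let-7g at 0.33 (r 0.983), followed by miR-340-3p at 0.34 and miR-101a at 0.41. These are descriptions over 12 arrays in 4 groups that share U6 as reference. miR-155 rose by 2.02 at 36 h and 1.91 at 60 h and was 0.22 above 0 h at 72 h (log2), so it too was high at both middle times. miR-155 is also on the list of leukocyte miRNAs described further on. No assay came as near to miR-29b as miR-27a did to miR-29a, but these distances include the scatter between replicates. That scatter was wider for miR-29b (SD of the level 0.78 at 0 h and 0.53 at 72 h) than for miR-29a (0.06 and 0.14). The distances of the members therefore do not compare their courses alone.

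Other miRNAs reported to promote myogenic differentiation were mostly higher or uncalled at 36 h and split later. Over all tested assays, the shares called higher and lower were 44.1% and 12.1% at 36 h, 28% and 36.4% at 60 h, and 20.9% and 46.3% at 72 h, and the counts in this and the next lists are to be read against them. Of 12 tested assays in this list, 6 were higher and 0 lower at 36 h (median log2 change 1.19, against 0.82 over all tested assays). A mouse and a rat assay of miR-1 are both among the 12, and both were called higher at each time. At 60 h 7 were higher and 4 lower (1.37 against -0.37), and at 72 h 7 and 5 (1.84 against -0.77). miR-133b, a muscle-enriched miRNA, rose 15.6-fold at 36 h, 48.8-fold at 60 h and 69.2-fold at 72 h, and miR-322 rose 99.5-fold, 62.4-fold and 62.1-fold. These stayed high at 72 h, when no miR-29 member was called higher with U6. miR-26a fell 6.78-fold at 60 h and 14.9-fold at 72 h, and miR-181a fell 4.05-fold and 8.61-fold. With snoRNA202 those falls were not called (changes of -0.36 and -0.85 for miR-26a, 0.39 and -0.06 for miR-181a).

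Other miRNAs reported to repress DNA methyltransferases, a role shared with miR-29, were higher at 36 h in 5 of 5 tested assays, against 44.1% of all, with a median log2 change of 1.87. miR-143 rose 5.95-fold and miR-148b 5.90-fold, the latter detected on 2 of 3 arrays at 0 h. With the global mean 2 of the 5 were called. At 60 h 1 was higher and 2 lower (median -0.35), and at 72 h 1 and 3 (median -1.35). miR-143 was then 4.25-fold and 4.82-fold lower and miR-152 2.37-fold and 3.80-fold lower, while miR-148b was 4.18-fold higher at both times. With snoRNA202 the changes of miR-143 were 0.32 and 0.78 and those of miR-152 were 1.16 and 1.12.

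Among 9 tested miRNAs reported as repressors of matrix or fibrosis genes, 3 were higher and 0 lower at 36 h, no larger a share than the 44.1% of all assays, with a median log2 change of 0.90 close to the card A median of 0.91. There were 2 higher and 6 lower at 60 h (-1.35), against 28% and 36.4% of all, and 2 higher and 7 lower at 72 h (-2.42), against 20.9% and 46.3%. The 2 higher ones at both later times were miR-133a and miR-133b. miR-26b fell 7.66-fold at 72 h and miR-30d 3.61-fold at 60 h, but with snoRNA202 the changes were 0.11 and 0.55. Of 4 miRNAs reported as profibrotic 3 were tested, miR-199a-5p being mostly undetected: 3 were higher at 36 h (44.1% of all assays), and 1 was higher and 1 lower at 60 h (28% and 36.4% of all) and at 72 h (20.9% and 46.3%). miR-21 rose 98.2-fold, 60.8-fold and 22.5-fold at the 3 times. miR-199a-3p rose 9.16-fold at 36 h, and its changes at 60 and 72 h, 0.19 and -0.86, were not called. miR-214 was 2.65-fold higher at 36 h, then 2.78-fold and 3.26-fold lower, and at 72 h with snoRNA202 it was called higher (1.34).

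Relative to U6, the summed levels of miRNAs known from leukocytes, endothelium, fibroblasts or smooth muscle and epithelium were highest at 36 h, though not every assay was. For comparison, the median card A assay rose by 0.91 at 36 h, and another control RNA as reference shifts these sums by the amounts given above for card A. The fibroblast and smooth muscle sum and the epithelial sum rose by less than this median. They also rose by less than Y1 (0.65), so with Y1 as reference both would be highest at 0 h. With snoRNA202 or snoRNA135 both would stay highest at 36 h. A sum is led by its most abundant assays. The summed level of 6 leukocyte miRNAs on card A was, from 0 to 72 h, -5.38 to -5.34, -3.72 to -3.65, -6.57 to -6.44 and -7.42 to -7.28 (log2, range over 3 arrays), with 5 or 6 detected. Of the 5 tested against 0 h, 4 were higher and 0 lower at 36 h (44.1% and 12.1% of all assays). There were 3 higher and 1 lower at 60 h (28% and 36.4% of all), and 2 and 1 at 72 h (20.9% and 46.3%). At 60 h the log2 change was 5.91 for miR-142-3p, 4.06 for miR-223 and 1.91 for miR-155, but -3.67 for miR-150 and 0.39, uncalled, for miR-146a. That of 2 endothelial miRNAs, miR-126-3p and miR-126-5p, both detected throughout, was -4.52 to -4.44, -2.29 to -2.28, -6.28 to -6.19 and -6.42 to -6.40. That of 5 fibroblast and smooth muscle miRNAs, 4 or 5 detected, was -3.23 to -3.11, -2.76 to -2.70, -6.16 to -6.13 and -6.82 to -6.75. Within this list miR-145 was highest at 0 h, with a log2 change of -0.33 at 36 h. Of 7 epithelial miRNAs 1 to 3 were detected, and their sum was -9.22 to -9.05, -8.75 to -8.59, -10.91 to -10.78 and -12.25 to -12.04. The erythroid miR-451 was not detected at 0 h and was at -14.07 to -12.99 at 36 h. The 5 muscle assays on card A were detected on every array, and their sum was -8.48 to -8.35, -6.54 to -6.51, -4.73 to -4.65 and -5.02 to -4.88, and that of miR-206 on card B was -4.06 to -3.71, -3.43 to -3.32, -1.83 to -1.80 and -1.07 to -0.99. The muscle assays did not move together. Of 8 tested on both cards, rat assays included, 5 were higher and 2 lower at 36 h (44.1% and 12.1% of all assays). There were 6 and 2 at 60 h (28% and 36.4%) and at 72 h (20.9% and 46.3%). Both lower ones were assays of miR-489, and the log2 change of the mouse assay was -1.40, -4.85 and -6.67. The largest rise was that of miR-31, by 7.29, 9.93 and 9.01. The part of other cell types in the levels of the miR-29 members was not tested.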

How the data were processed

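Total RNA was extracted with Trizol and run on TaqMan Array Rodent MicroRNA Cards v2.0 on an ABI 7900HT instrument for 40 cycles, per the labels. The deposited values are Ct per spot, an inverse log2 scale, with no further normalization per the file headers. The sources used here name neither the software nor the threshold behind the Ct, and arrays give no read depth, so their number limits the precision. The authors' deposited table adds fold changes, linear ratios averaged over replicates. Its dCt equals Ct minus 15.375, 14.883 and 15.392 at 0, 36 and 60 h, where the mean U6 Ct on card A was 15.374, 14.883 and 15.392. Its last time is day 3.5, whereas the labels give 72 h, so the time was taken from the labels, and 66 per-sample columns of these tables were left unused.

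The level was the mean U6 Ct of the array minus the assay Ct. An assay was detected if all its spots were below Ct 35, and tested with at least 2 detected replicates per group. Group differences come from limma 3.58.1 (R 4.3.3), with lmFit, contrasts.fit and eBayes on the 12 arrays of each card in 4 time groups, and p-values were adjusted by Benjamini-Hochberg over both cards. Intervals are 95% intervals of that fit. The fit and the permutation test were tested on simulated data.

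The members and lists were chosen with earlier results of these data known. Named were the members, the passenger assays, the 3 nearest courses per member, list members up to 4, and otherwise up to 2 rises and 2 falls per list and time. The lists held 14 myogenic names (13 matched), 5 DNA methyltransferase repressors, 9 matrix or fibrosis repressors and 4 profibrotic miRNAs, besides the cell type markers; miR-26a, miR-133a, miR-133b and miR-214 are in 2 of them. Sequences came from RefSeq tables by miRNA name, with 3 of 3 members matched. Same-numbered replicates did not deviate together (card A correlations -0.27 to 0.36, 5 of 18 over 0.1), so the numbers did not pair the arrays. Alternatives changed the reference, the detection limit, the fold minimum, the model and the arrays used.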

Additional observations from a re-analysis of the deposited data

How the results depend on the processing

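Of the 18 changes of the members, 18 kept their direction and call with any Ct counted as detected, U6 averaged per group, undetected values at Ct 35, a fit of the compared groups alone, a variance trend, and the replicate number as a block. In each of the 12 fits that left out 1 array all 18 kept their call, and the uncalled change of miR-29b at 72 h against 0 h, 0.10, ran from -0.21 to 0.53, below 0 without 0 h replicate 1 or 2 or 72 h replicate 3. With Ct 32 as limit 13 of 13 did, but miR-29b was not testable at 0 or 72 h and 1 member was called at 60 h against 0 h. The reference mattered more: direction and call were both kept by 16 of 18 with snoRNA135, 15 with Y1, 8 with snoRNA202 and 7 when scaled to the global mean. The cause was not tested. At 72 h against 0 h, the members called numbered 3 with snoRNA202, all higher, 0 with snoRNA135 and with Y1, and 1 with the global mean, higher. At 60 h against 36 h it was 1 with either snoRNA202 or the global mean, each time miR-29b and higher, and 1 with Y1. At 72 h against 36 h it was 1 with each of snoRNA202 and the global mean, and at 72 h against 60 h it was 1 with the global mean. The direction turned for miR-29a (2.88) and miR-29c (1.84) at 72 h against 0 h with snoRNA202, for miR-29a there also with snoRNA135 (0.69), Y1 (0.15) and the global mean (0.86), uncalled as with U6, and for miR-29a at 60 h against 36 h with snoRNA202 (0.26) and the global mean (0.18). For miR-29b* it turned to a called increase at 60 h (1.41) and 72 h (1.47) against 36 h with snoRNA202, and also at 72 h against 36 h with the global mean (1.11). Uncalled turns of miR-29b*, whose changes with U6 were small, also occurred with snoRNA135, Y1 and the global mean. With no fold minimum 17 of 18 were the same and miR-29c at 60 h was called.

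Over all assays, the count called at 72 h against 60 h was 97, and 46 with snoRNA202, 59 with snoRNA135, 42 with the global mean and 200 with no fold minimum. The split of higher against lower calls at 36 h was 120 and 33, and 180 and 6 with snoRNA202, 139 and 24 with snoRNA135, 75 and 68 with Y1 and 59 and 89 with the global mean. At 72 h it was 51 and 113, and 166 and 24 with snoRNA202, 65 and 85 with snoRNA135, 44 and 122 with Y1 and 72 and 79 with the global mean. Leaving out 1 array gave 3 members called at 36 h, 2 at 60 h and 1 at 72 h each time, and the change of miR-29b at 36 h ran from 2.63 to 3.37. The adjusted p of the within-array differences ran from 0.00487 to 0.0961 for miR-29a minus miR-29b, 0.000877 to 0.00282 for miR-29a minus miR-29c and 0.000195 to 0.00643 for miR-29b minus miR-29c (exact permutation tests). With the replicate block, permuting within each replicate number, that of miR-29a minus miR-29b was 0.0521. The block changed no call of a member and added that of miR-29a* at 72 h against 60 h (limma adjusted p = 0.0449), and 6 of 12 card A arrays correlated best with their own number.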
